A study of Mus musculus with 6 samples.

Results

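Day 5 neural rosettes were compared with the epiblast stem cells (EpiSCs) they were made from, across 19938 genes and on 2 of the 6 arrays of the series. EpiSCs are mouse pluripotent cells that resemble the epiblast just after implantation, the tissue from which the germ layers arise. The EpiSCs, of strain 129, were kept in Knockout DMEM with 20% KSR (a serum replacement) and 10 ng/ml FGF2. The rosettes came from the same kind of culture, exposed for 5 days to SB431542, Dorsomorphin, Noggin, retinoic acid (RA) and sonic hedgehog (SHH), and are labelled as ventral neural tube. The other 4 arrays hold oligodendrocyte progenitor cells (OPCs) and oligodendrocytes grown on from rosettes, each at passage 3 and passage 11, and serve here only to show where a gene stood later. The genes were all those whose array row carries exactly 1 gene symbol, with the row of the highest mean over the 6 arrays taken where a gene had several. There was 1 array for EpiSCs and 1 for rosettes, so no spread between cultures and no p-value can be given, and cell type, culture medium and array cannot be told apart. How many EpiSC lines or clones were used is not given in the labels.

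Every value below is a log2 expression level, and every difference is rosette minus EpiSC on that scale, so that 1 is a 2-fold and 2 a 4-fold difference. Neural induction proceeds when Nodal and bone morphogenetic protein (BMP) signals are low: SB431542 blocks the Nodal and activin type I receptors, Dorsomorphin blocks the BMP type I receptors, and Noggin binds BMP ligands. RA then gives the neural plate a posterior, hindbrain and spinal cord character by acting on nuclear receptors and Hox genes, and SHH gives it a ventral one through Gli factors. A rosette is a ring of polarised neuroepithelial cells around a lumen, a culture counterpart of the neural tube, and it makes neurons before it makes glia.

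The largest difference among all genes lay in a microRNA (miRNA) cluster of pluripotent cells, so the mature miRNAs of the genes that stood furthest apart are shown first, from RefSeq (GRCm38.p6), with the seed (bases 2 to 8, which pair with target mRNAs) in capitals. Of 45 listed miRNA genes with a row, 43 had a mature sequence in that table. Those of the cluster are:
miR-302b-3p: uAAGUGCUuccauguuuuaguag
miR-302d-3p: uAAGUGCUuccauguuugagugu
miR-302c-3p: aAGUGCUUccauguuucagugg
miR-367-3p: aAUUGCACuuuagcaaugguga
Those of genes higher in the rosette, with miR-10b for its shared seed, are:
miR-10a-5p: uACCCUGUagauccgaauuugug
miR-10b-5p: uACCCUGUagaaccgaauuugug
miR-219a-5p: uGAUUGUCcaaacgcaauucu
let-7c-5p: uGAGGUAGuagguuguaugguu

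The seeds of miR-302b and miR-302d are identical, and miR-302c begins a base later on the same run of letters. miR-367 is made from the same cluster and carries a different seed. The 5 hairpins lie within 580 bases on chromosome 3, at chr3:127545228-127545807 on the plus strand, inside the span of the protein-coding gene Larp7. miR-10a and miR-10b share a seed and come from the HoxB and HoxD clusters. An array row of a miRNA gene reads RNA that holds the hairpin, so precursor and mature miRNA were not told apart.

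All 5 genes of the miR-302 and miR-367 cluster were lower in the rosette, and they made up 5 of the 8 largest decreases among named genes. Mir302b stood at 11.85 in EpiSCs and 4.47 in the rosette, a difference of -7.38 (166-fold). Mir302c stood at 11.70 against 5.45 (-6.25), Mir302a at 10.86 against 4.80 (-6.05), Mir302d at 11.08 against 5.23 (-5.85) and Mir367 at 9.47 against 4.06 (-5.42). The rosette levels were already those of the later arrays, where Mir302b lay at 4.21 to 4.44 and Mir367 at 4.13 to 4.39. Larp7, which encodes an RNA-binding protein and overlaps the cluster, stood at 11.60 against 10.95 (-0.65). Only positions were compared, and whether the cluster and Larp7 share a strand or a transcript was not tested. In the other direction, Mir10a stood at 4.60 in EpiSCs and 7.62 in the rosette, a difference of 3.02, and at 4.71 to 4.87 on the 4 later arrays. Its overlapping gene Hoxb3 differed by 2.68, and its flanking genes Hoxb5 and Hoxb4 by 3.75 and 3.85. Mir10b, inside the HoxD cluster, differed by 0.87, and its overlapping genes Hoxd3 and Hoxd4 by 0.93 and 0.96. Mir219a-2, one of the genes of a miRNA known for its role in oligodendrocyte maturation, stood at 8.71 in EpiSCs, 11.59 in the rosette, 8.26 and 8.21 in OPCs and 10.77 and 9.16 in oligodendrocytes. It lies within Cercam, which differed by 1.40, while the second gene, Mir219a-1, stood at 9.48 against 9.32 (-0.16).

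Other miRNA families differed less. Of 12 let-7 and miR-125 genes, miRNAs that accumulate as cells differentiate, 1 was at least 2-fold higher: Mirlet7c-1, at 5.48 against 6.66 (1.18). Its seed is shared by 8 of the listed genes. Of 8 genes of the miR-17 family clusters, growth-promoting miRNAs, 1 was at least 2-fold lower, Mir106a at 7.64 against 6.57 (-1.07), and the family median was -0.38. The 4 measured genes of the epithelial miR-200 family lay between -0.27 and -0.14. Mir9-1, which makes the neural miR-9, stood at 8.59 in EpiSCs, 9.16 in the rosette and 9.80 to 11.72 later. Mir10a and Mirlet7c-1 were dim on both arrays. Their rosette levels lay under the 95th percentile of olfactory receptor genes (8.23), which belong to olfactory neurons, and when values below it are raised to it on each array (the olfactory floor), the differences of Mir10a, Mirlet7c-1 and Mir106a become -0.10. Median levels of the miR-200 genes (7.6 in EpiSCs, 7.3 in the rosette) also lay under that percentile. So did those of the let-7 and miR-125 genes (7.3 and 7.5). Small differences among such dim genes do not show that the levels held steady.

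Over all genes, 348 were at least 4-fold higher in the rosette (1.75% of those compared) and 159 at least 4-fold lower (0.797%). At the 2-fold limit, 1377 were higher (6.91%) and 736 lower (3.69%). Counts of list members above and below are to be read beside these shares. A count of 1 gene does not set a list apart from all genes. The median difference of all genes was -0.07. As a yardstick, 2113 genes were at least 2-fold apart here, while passage 3 and passage 11 differed in 125 for OPCs and 785 for oligodendrocytes. No detection call came with the values. Among 1027 olfactory receptor genes, 0 were 2-fold apart, and their median was 6.57 in EpiSCs and 6.52 in the rosette. Of the 348 genes, 152 had an EpiSC value under the 95th percentile of these receptors (8.33), and of the 159, 85 had such a rosette value, so for those the dim side may be background and the fold compressed. Genes were 4-fold higher more often than lower (68.6% of those apart, and 65.2% at 2-fold). When both arrays were centred on ribosomal protein genes, which moves the median of all genes by 0.19, the shares were 78.4% and 77.8%. Under the other alternatives they lay between 64.9% and 69.4% at 4-fold and between 59.9% and 66.8% at 2-fold. Just inside the 4-fold limit lay Uchl1 at 2.0025 and Catsperz at -2.0035, and just outside it Pfn2 at 1.9995 and Cd59a at -1.9998, so the limit divides near neighbours. Catsperz was dim, and at the olfactory floor it differed by -0.82.

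**Figure D1:**
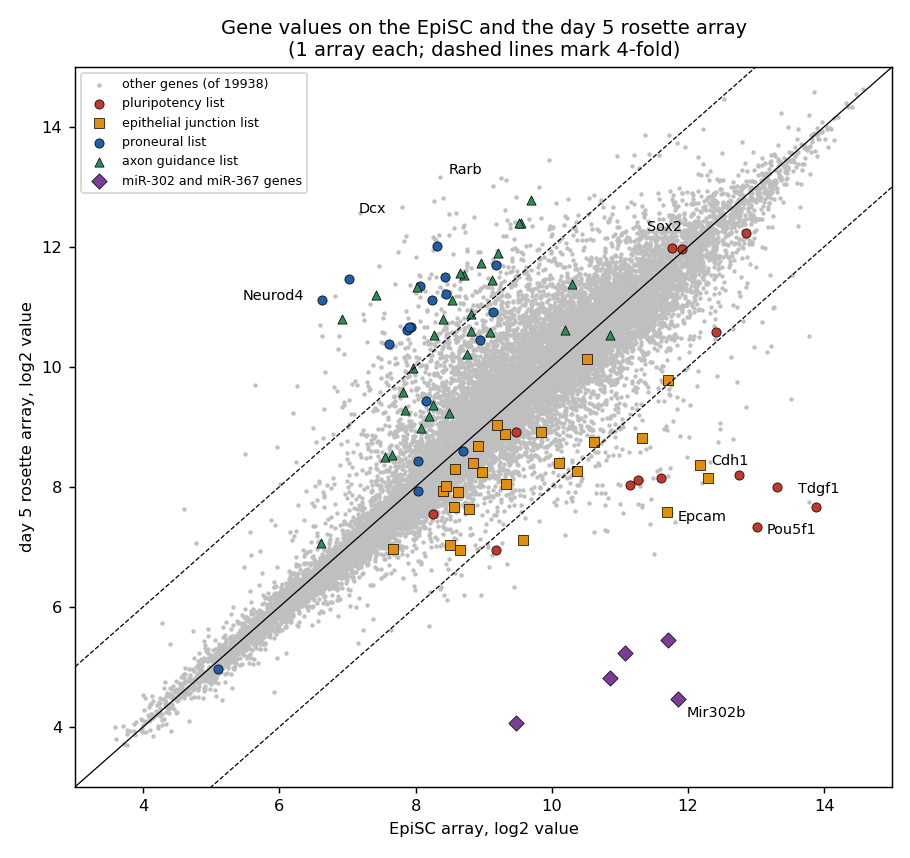
Log2 level on the EpiSC array (x axis) against the day 5 rosette array (y axis) for 19938 genes, 1 array each, with the solid line at equality and dashed lines at 4-fold. The miR-302 and miR-367 genes lie below the lower dashed line, for example Mir302b at 11.85 and 4.47, pluripotency and epithelial junction genes lie mostly below the solid line, and proneural and axon guidance genes mostly above it, for example Neurod4 at 6.62 and 11.11.

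The labels were checked against defining markers. All 9 EpiSC markers lay between 11.54 and 13.88 on the EpiSC array, while the 7 markers of naive stem cells, an earlier pluripotent state, lay between 7.17 and 9.32. Not all naive genes were dim. In the longer naive list, described below, 7 of 15 genes, among them Nr5a2 and Klf5, exceeded the median of all genes on at least 1 of the 2 arrays. The median of that list was 8.85 on the EpiSC array. In the rosette, 8 of the 9 EpiSC markers were at least 2-fold lower and 1, Sox2, which neural progenitors also use, stood at 11.76 against 11.98 (0.22). Of 9 neural progenitor markers, 6 were at least 2-fold higher and 0 lower, and of 7 ventral neural tube markers, 4 were higher and 0 lower. The 7 ventral markers lay between 9.63 and 10.44 in the rosette. Floor plate factor Foxa2 was the exception in direction, at 9.80 against 9.63 (-0.17). Of 10 neuron markers, 9 were at least 2-fold higher. In bulk RNA, fewer cells of a type and less RNA per cell cannot be told apart, and the share of neurons in the culture was not measured.

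Some neuronal genes were already high in EpiSCs. Stmn2, a microtubule regulator of growing axons, stood at 12.79 in EpiSCs, 13.74 in the rosette, 10.48 and 7.82 in OPCs and 12.56 and 8.12 in oligodendrocytes. The intermediate filament genes Nefl, at 11.27 against 13.32 (2.04), and Ina, at 10.95 against 13.51 (2.56), were likewise well above the median of all genes on the EpiSC array. Crabp1, which binds RA in the cytoplasm, stood at 12.52 against 14.46 (1.94). Among markers of other cells, the summed level of 8 fibroblast or feeder markers was 11.98 in EpiSCs and 12.05 in the rosette, with 1 of 8 at least 2-fold higher, Postn at 7.63 against 8.91 (1.28). For 6 neural crest markers the sums were 11.28 and 11.86, with Ngfr at 9.32 against 10.92 (1.61) and Tfap2b at 7.30 against 8.67 (1.37) higher but Sox10, the lineage-defining factor, at 8.94 against 8.76 (-0.18). For 6 endoderm markers they were 11.23 and 11.24, with Foxa1, also a floor plate gene, at 9.05 against 10.09 (1.04). For 6 markers of mesoderm, endothelium and blood they were 11.22 and 10.79, with Meox1 at 8.79 against 7.58 (-1.21). For 5 OPC markers they were 10.91 and 11.21, and 1 of 5 was at least 2-fold higher: Ptprz1, a phosphatase gene that neural progenitors also express, at 6.67 against 9.92 (3.25). Olig1 and Pdgfra stood at 7.80 against 7.77 (-0.03) and 9.12 against 8.29 (-0.82). For 5 astrocyte markers they were 10.49 and 11.49. Slc1a2, a glutamate transporter of radial glia and astrocytes, at 8.17 against 10.93 (2.76), was the 1 of these 5 at least 2-fold higher, and Gfap stood at 8.23 against 7.89 (-0.35). Postn, Tfap2b and Meox1 were dim, and differed by 0.57, 0.33 and -0.56 at the olfactory floor. In the longer list of neural crest and Schwann lineage genes, 6 of 15 were at least 2-fold higher and 1 lower. At the olfactory floor 5 were 2-fold higher. Ednrb, the endothelin receptor B of neural crest and glial progenitors, stood at 8.27 in EpiSCs, 12.76 in the rosette, 11.97 and 11.64 in OPCs and 12.46 and 11.94 in oligodendrocytes, and stayed high. The 1 that was lower was the neuregulin receptor gene Erbb3, at 9.47 against 8.24 (-1.24). These sums mix levels of different genes, and dim markers add background to them. For example, 4 of 5 astrocyte markers lay under the 95th percentile of olfactory receptor genes on each array. Near-equal sums therefore cannot show that other cells were absent or unchanged. The part of other cells in the differences below was not tested.

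Pluripotency genes and epiblast genes were mostly lower, and a few were not. Of 14 core and primed pluripotency genes, 9 were at least 2-fold lower and 0 higher, with a median of -2.67 against -0.07 over all genes. Zscan10 stood at 11.27 against 8.12 (-3.15), L1td1, an RNA-binding protein gene, at 11.14 against 8.02 (-3.12) and Dppa2, a chromatin regulator of early embryos, at 9.18 against 6.95 (-2.23). At the olfactory floor Dppa2 differed by -0.95, which leaves 8 of the list 2-fold lower. Sall4, a zinc finger partner of Pou5f1, was still at 10.57 in the rosette, from 12.40, and at 8.62 to 8.69 later. Zfp281 (0.04) and Trim28 (-0.61), which act in many cell types, differed by less than 2-fold. Among epiblast genes, Zic2, a zinc finger factor, stood at 12.46 against 9.06 (-3.41), and Enpp3, a surface enzyme, at 13.21 against 10.35 (-2.87). Pou3f1 (-0.30) and Sox3 (0.20), which mark both epiblast and neural plate, stayed within 2-fold. In the naive list 5 of 15 were lower: Nr5a2, a nuclear receptor that binds the Pou5f1 gene, at 11.00 against 7.71 (-3.29), Fbxo15 at 8.42 against 6.20 (-2.22), Klf5 at 10.33 against 8.99 (-1.34), Fgf4 at 9.64 against 8.52 (-1.12) and Dppa5a at 9.48 against 8.44 (-1.04). Fbxo15 differed by -0.19 at the olfactory floor. Of 13 streak genes, 5 were lower, among them Mixl1, a mesendoderm factor, at 9.83 against 7.97 (-1.86). Lhx1 was the 1 that was higher, at 9.10 against 11.04 (1.95), and it is also a factor of spinal interneurons.

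Nanog, a homeodomain factor of the pluripotency network, stood at 12.75 in EpiSCs and 8.20 in the rosette, a difference of -4.56 (23.5-fold). Its promoter was searched on both strands, along with those of 15614 genes, for the joined Sox and Oct motif. That motif occurred in 4 promoters (0.0256%) in windows from 250 bases before to 50 after the start, and Nanog was the 1 of 119 genes at least 4-fold lower that held it. The 120 bases before its first RefSeq start (chr6:122707369-122707488, plus strand, GRCm38.p6) carry it in capitals, read from the opposite strand, from base -75 to base -62:
Nanog promoter: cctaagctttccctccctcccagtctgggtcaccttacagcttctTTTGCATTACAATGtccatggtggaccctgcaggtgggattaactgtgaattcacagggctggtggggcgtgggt
The octamer ATGCAAAT occurred in 1.9% of all promoters, in 2.52% of those of genes at least 4-fold lower and in 4.13% of those of genes at least 4-fold higher. The 3 lower genes that held it were Pim2, Prrg4 and Chchd10, and the 10 higher ones included the proneural gene Neurog1 and the Notch genes Dll1 and Nrarp. These matches describe the letters only, and no binding was measured.

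Within Nodal signalling, ligands and targets were low in the rosette while most receptors and Smads were not. Of 6 ligands and cofactors, 3 were at least 2-fold lower: the co-receptor gene Tdgf1 (-6.23), Gdf3 at 11.61 against 8.15 (-3.46) and Nodal at 10.99 against 8.02 (-2.97). Foxh1, the DNA-binding partner of Smad2 and Smad3, stood at 11.29 against 8.02 (-3.27). The type I receptor gene Tgfbr1, by contrast, stood at 10.57 against 12.38 (1.81), and the type II receptor gene Acvr2a at 9.38 against 10.91 (1.53). Smad2, Smad3 and Smad4 differed by 0.55, 0.75 and 0.17. Of 6 antagonists and targets, 3 were lower, Lefty2, Lefty1 and Cer1, at -4.63, -4.18 and -3.55.

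BMP pathway genes as a whole lay near the median of all genes (-0.04). Fst, a secreted antagonist of activin and BMP, was the 1 gene of this list at least 2-fold lower, at 12.47 against 8.96 (-3.51). Of 7 ligands 1 was at least 2-fold higher, Bmp7 at 10.14 against 11.51 (1.37), and Bmp4 stood at 9.36 against 8.40 (-0.96). The receptor gene Bmpr1b stood at 7.29 against 8.87 (1.58), but it was dim and differed by 0.54 at the olfactory floor. Among targets, the inhibitors of bHLH factors did not behave alike: Id2 stood at 10.23 against 12.79 (2.55) and Id4 at 9.04 against 11.12 (2.07), whereas Id1 and Id3 differed by 0.22 and -0.07. Nog, which encodes the Noggin protein added to the medium, stood at 8.79 against 8.61 (-0.18).

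In the fibroblast growth factor (FGF) pathway, feedback and target genes were mostly lower and 0 receptors were 2-fold lower. Of 15 feedback inhibitors and target factors, 9 were at least 2-fold lower, with a median of -1.14. Besides the ETS factor genes, the ERK phosphatase gene Dusp6 stood at 11.79 against 10.44 (-1.35), the inhibitor gene Spry2 at 10.42 against 8.79 (-1.63) and the immediate early factor Egr1 at 10.68 against 9.38 (-1.30). Dusp4, another phosphatase gene, was the 1 that was higher, at 9.48 against 10.61 (1.14). Etv5, an ETS factor, was lowest in the rosette. It lay at 11.70 in EpiSCs, 8.18 in the rosette, 12.09 and 12.20 in OPCs and 11.09 and 11.21 in oligodendrocytes. Any part of FGF2 in the medium was not tested. Among receptors, Fgfr3 stood at 9.15 against 11.69 (2.55) and Fgfr2 at 9.28 against 10.89 (1.61), while Fgfr1 stood at 12.08 against 11.44 (-0.64). Of 13 ligands, 3 were lower, Fgf5, Fgf4 and Fgf8 (-3.27, -1.12 and -1.10), and 3 were higher. The higher ones were Fgf12 (1.57), Fgf13 (1.28) and Fgf14 (1.06), members of the family that stay inside the cell and act on sodium channels of neurons. Fgf12 was dim, and its difference was 0.52 at the olfactory floor, which leaves 2 ligands 2-fold higher.

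RA pathway genes differed by role. Of 8 responsive factors, 6 were at least 2-fold higher and 0 lower, with a median of 2.39. The homeodomain partners of Hox proteins Meis1 and Meis2 stood at 8.70 against 12.33 (3.63) and 9.47 against 12.82 (3.35), the zinc finger gene Tshz1 at 8.76 against 11.96 (3.20), and the nuclear receptor genes Nr2f1 and Nr2f2 at 8.12 against 10.66 (2.54) and 8.17 against 10.42 (2.25). Among the receptors themselves, Rarb stood at 8.35 in EpiSCs, 13.16 in the rosette, 8.10 and 8.31 in OPCs and 8.82 and 8.94 in oligodendrocytes, whereas Rarg stood at 9.72 against 8.61 (-1.11) and the partner receptor gene Rxrg at 10.23 against 7.91 (-2.32). Rara and Rxra differed by 0.87 and 0.67. The RA-degrading enzymes did not behave alike: Cyp26b1 stood at 8.93 against 10.58 (1.64) and Cyp26a1 at 10.31 against 9.30 (-1.01). Rdh10, which makes retinal, the precursor of RA, stood at 10.24 against 9.10 (-1.14), and Aldh1a2, the enzyme of the last step in the embryo, at 8.75 against 8.75 (0.00). Crabp2, which carries RA to its receptor, stood at 9.96 against 13.45 (3.49).

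Rarb has a well known RA response element just before its start, and the sequence is shown because Rarb was the largest increase of a transcription factor gene. Elements were searched as 2 direct half-sites, each with the letters AGGTCA, the variant letters AGTTCA, the variant letters GGGTCA or the variant letters GGTTCA, spaced by 1, 2 or 5 bases, on both strands. Spacing 5 occurred in 11 of 15614 promoters (0.0704%), and Rarb was the 1 of 242 genes at least 4-fold higher that held it. Spacing 1 occurred in 0 of those 242 and in 0.243% of all, and spacing 2 in 0 and 0.0897%. Of 119 genes at least 4-fold lower, 1 held spacing 2 (0.84%), the amino acid exchanger gene Slc7a7, and 0 held spacing 1 or 5. The 120 bases before the Rarb start (chr14:16575477-16575596, minus strand, GRCm38.p6) carry the element in capitals, from base -53 to base -37:
Rarb promoter: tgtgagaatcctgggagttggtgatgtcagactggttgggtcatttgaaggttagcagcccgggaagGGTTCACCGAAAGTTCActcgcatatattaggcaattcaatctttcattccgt
Elements outside these windows were not searched, and no match in a window says nothing about RA action on a gene.

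Hox genes, which set position along the body axis, differed by paralog group, and those at least 2-fold higher belonged to groups 1 to 7. Of 7 genes of groups 1 to 3, 5 were at least 2-fold higher, of 10 genes of groups 4 to 6, 6 were, of 8 genes of groups 7 to 9, 1 was, and of 12 genes of groups 10 to 13, 0 were. At the olfactory floor these counts were 4, 5, 1 and 0. The clusters were unequal. In HoxB 7 of 9 measured genes were at least 2-fold higher (median 2.26), in HoxA 3 of 10, in HoxC 2 of 9 and in HoxD 0 of 9. Hoxb6 stood at 7.90 against 10.16 (2.26) and Hoxb7 at 8.50 against 9.53 (1.03), whereas Hoxa6 stood at 7.99 against 8.29 (0.29) and Hoxa7 at 8.44 against 8.23 (-0.21). Hoxa5 stood at 7.52 against 10.81 (3.29) beside Hoxa4 at 9.60 against 9.99 (0.39). Hoxc4 and Hoxc5 stood at 6.52 against 8.02 (1.50) and 7.85 against 9.92 (2.07), and Hoxc6 at 7.21 against 7.21 (-0.00). Hoxc4 lay under the olfactory receptor level on both arrays, and its difference is -0.10 at the olfactory floor. On the OPC arrays Hoxa2 lay at 10.48 and 10.11 and Hoxb6 at 8.23 and 8.07.

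**Figure D2:**
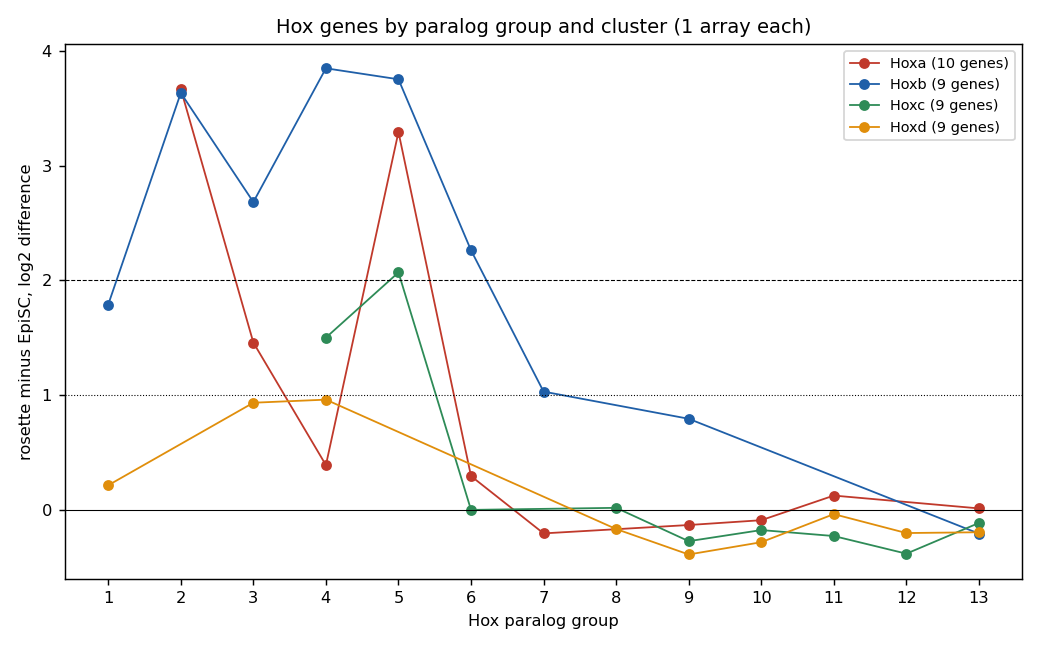
Log2 difference, rosette minus EpiSC (y axis, 1 array each), of each measured Hox gene by paralog group (x axis), with a line joining the genes of a cluster and dotted and dashed lines at 2-fold and 4-fold. At each of groups 3 to 7 the HoxB gene lies above those of the other clusters, with Hoxb4 at 3.85. HoxD genes stay under 2-fold, and no gene past group 7 reaches it.

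Hindbrain factors Irx5 (1.68), Epha4 (1.58), Irx3 (1.05) and Epha7 (1.05) were at least 2-fold higher, 4 of 9 measured. Egr2, which marks rhombomeres but is also an immediate early gene, was the 1 that was lower, at 9.84 against 8.73 (-1.11). Of 17 forebrain and midbrain factors 1 was higher, Pax8 at 8.67 against 10.35 (1.68), which is also used in the hindbrain and spinal cord, and 1 was lower, Otx2 at 12.13 against 9.67 (-2.46). Both counts lie near the shares of all genes, 6.91% higher and 3.69% lower.

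In SHH signalling, which patterns the ventral neural tube, 5 of 17 genes were at least 2-fold higher and 1 lower. The shares of all genes were 6.91% and 3.69%. Boc, a coreceptor, stood at 8.75 against 10.94 (2.19), Hhip, a decoy receptor induced by SHH, at 7.38 against 10.03 (2.65) and the receptor gene Ptch1 at 11.28 against 12.32 (1.04). The other coreceptor genes, Cdon and Gas1, differed by 0.39 and 0.67. The cell cycle target Ccnd1 stood at 12.15 against 13.21 (1.06), and Mycn, a growth target, was the 1 that was lower, at 12.06 against 11.04 (-1.02). Smo, the signal transducer, stood at 11.95 against 12.04 (0.09), Gli1, the standard target, at 9.37 against 10.03 (0.66), and Gli2 and Gli3 differed by -0.06 and 0.13. Shh itself stood at 9.74 against 10.44 (0.70). Among the progenitor domains, Dbx1, of the p0 domain at the ventral side of the border with the dorsal neural tube, showed the largest increase after Pax6, at 8.76 in EpiSCs, 11.68 in the rosette, 8.49 and 8.83 in OPCs and 8.61 and 8.77 in oligodendrocytes. In the p3 and motor neuron domains, 5 of 8 genes were at least 2-fold higher, all by less than 4-fold except Pax6, which other domains share. Olig2 stood at 8.19 in EpiSCs, 9.70 in the rosette, 13.07 and 13.11 in OPCs and 12.37 and 12.76 in oligodendrocytes, and its neighbour in the lineage Olig1 stood at 7.77 in the rosette and 12.30 to 12.91 later. Of 7 floor plate genes 3 were at least 2-fold higher and 0 at least 2-fold lower, and 3 of the 7 had a negative difference. The largest increases were those of the matrix gene Spon1, at 8.48 against 12.19 (3.70), and the guidance cue Ntn1, at 9.13 against 11.44 (2.31). Of 11 dorsal factors 1 was higher, near the share of all genes: Pax3 at 8.24 against 10.20 (1.96). Its relative Pax7 stood at 9.11 against 9.96 (0.85), and roof plate and dorsal genes Msx1, Gdf7, Atoh1 and Olig3 differed by -0.14, -0.25, -0.11 and 0.09.

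Wnt ligands and inhibitors differed in both directions. The epiblast ligand Wnt8a stood at 11.74 against 8.32 (-3.42), while Wnt7a and Wnt7b, ligands of the neural tube, stood at 8.42 against 10.02 (1.60) and 8.82 against 10.53 (1.71). Among secreted inhibitors, Dkk1 stood at 10.45 against 8.49 (-1.95), but Sfrp2, Sfrp1 and Frzb stood at 10.18 against 12.36 (2.18), 10.83 against 12.43 (1.60) and 8.44 against 9.96 (1.52). The receptor gene Fzd3, needed for axon tracts, stood at 9.48 against 11.94 (2.46), and Fzd5 at 9.24 against 8.21 (-1.02). The nuclear factors Lef1 and Tcf7l1 stood at 9.90 against 8.23 (-1.67) and 10.65 against 9.22 (-1.43), and the general target Axin2 at 9.66 against 9.36 (-0.29). In the Notch pathway, which keeps some progenitors from becoming neurons, 7 of 19 genes were at least 2-fold higher and 0 lower. The ligand Dll1, carried by new neurons, stood at 8.59 against 11.18 (2.59). Its targets and modulators Nrarp, Hey1 and Lfng stood at 8.87 against 11.26 (2.38), 9.15 against 11.43 (2.28) and 9.46 against 11.38 (1.92), and Hes5 at 9.93 against 11.07 (1.14), whereas Hes1, a target that EpiSCs also express, stood at 10.28 against 9.61 (-0.67).

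**Figure D3:**
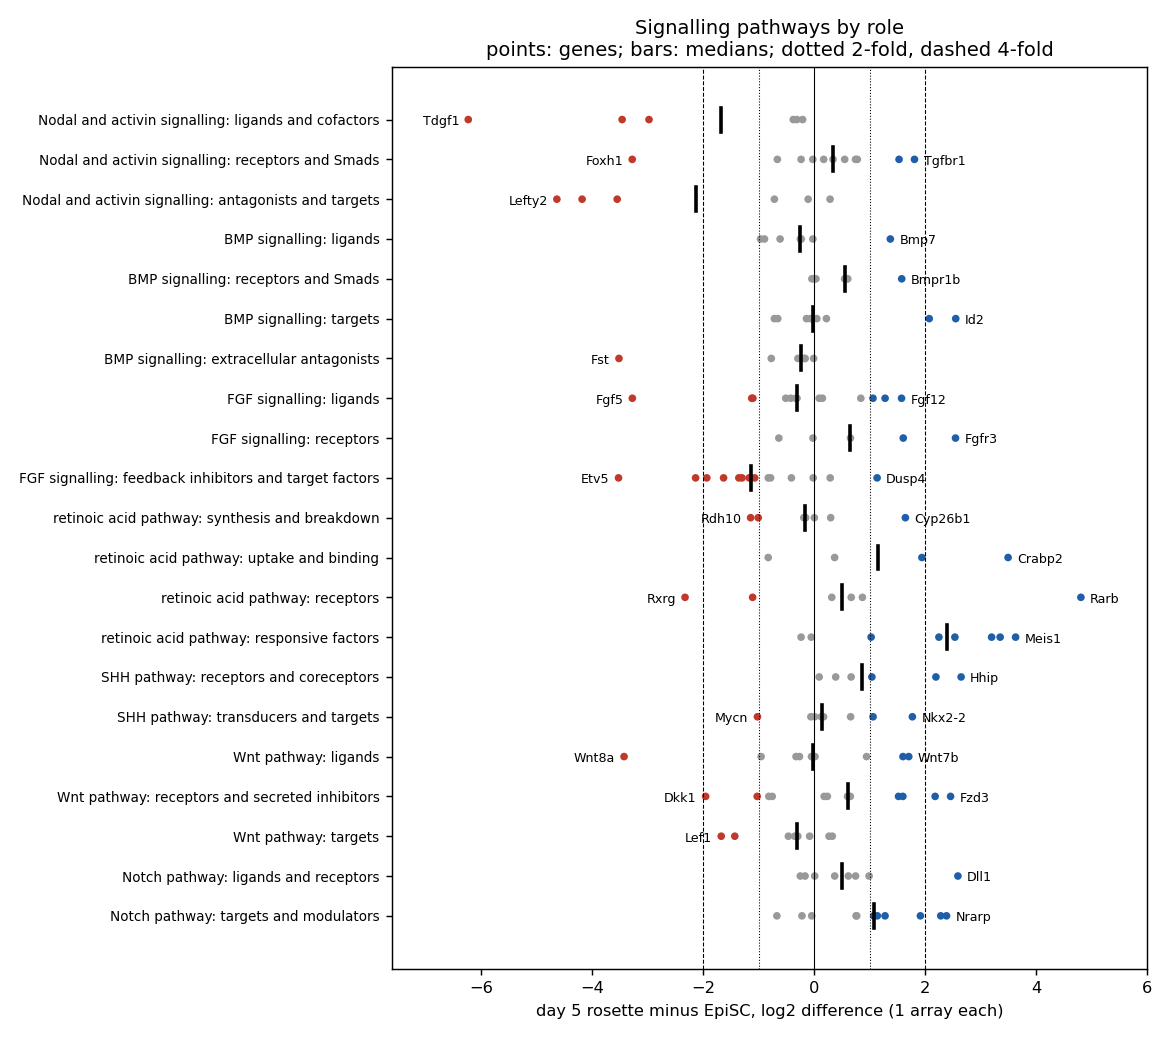
Log2 difference, rosette minus EpiSC (x axis, 1 array each), for the members of 21 pathway roles (y axis), with bars at role medians, blue and red points at least 2-fold higher and lower, and the outermost such genes named. Nodal ligands, Nodal targets and FGF feedback genes lie to the left, with medians of -1.67, -2.13 and -1.14, and RA-responsive factors lie to the right at 2.39.

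Genes of neuron formation were mostly higher. Proneural factors are bHLH proteins that commit progenitors to the neuronal fate, and factors downstream of them act as neurons leave the cell cycle. Of 19 measured, 15 were at least 2-fold higher, 12 of them at least 4-fold, and 0 were lower, with a median of 2.74. The commitment factors Neurog1 and Neurog2 stood at 8.06 against 11.34 (3.28) and 9.13 against 10.92 (1.79). Neurod4, which acts after them, stood at 6.62 in EpiSCs, 11.11 in the rosette, 6.77 and 6.68 in OPCs and 6.75 and 6.75 in oligodendrocytes. Nhlh1, another late factor, stood at 7.03 in EpiSCs, 11.45 in the rosette, 7.10 and 7.29 in OPCs and 7.42 and 7.46 in oligodendrocytes. Both were high on the rosette array alone. Neurod1 stood at 8.23 against 11.12 (2.88), and at 7.73 and 9.73 in OPCs. The Ebf factors of migrating young neurons, Ebf1, Ebf3 and Ebf2, stood at 8.31 against 12.01 (3.70), 8.43 against 11.49 (3.06) and 7.87 against 10.61 (2.74), and the Onecut factors of early-born neurons, Onecut1 and Onecut2, at 8.45 against 11.21 (2.76) and 9.19 against 11.69 (2.50). The 4 members under 2-fold were Neurog3, Neurod2, Neurod6 and Atoh1, which differed by 0.40, -0.09, -0.13 and -0.11. The SoxC gene Sox11, which turns on neuronal genes, stood at 10.54 against 12.81 (2.27) and Sox4 at 9.56 against 11.19 (1.63).

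Genes of neuronal structure followed. Of 16 cytoskeletal genes 14 were at least 2-fold higher (median 2.73). Dpysl3 and Stmn3, regulators of microtubules in growth cones, stood at 9.13 against 13.02 (3.88) and 9.32 against 13.11 (3.78), and Nefm, a neurofilament subunit, at 8.26 in EpiSCs, 11.95 in the rosette, 8.07 and 8.09 in OPCs and 7.83 and 7.72 in oligodendrocytes. Nefh, the filament subunit of mature axons, stood at 9.49 against 9.21 (-0.28). Among RNA-binding proteins Celf3 stood at 8.40 against 11.27 (2.87), and Srrm4, which directs neuronal splicing, at 7.81 against 9.78 (1.96), the latter being at 7.70 to 7.82 on the later arrays. Of 17 vesicle and secretory genes 12 were at least 2-fold higher. The vesicle calcium sensor gene Syt4 stood at 8.04 against 11.01 (2.97), and Syp at 8.44 against 10.55 (2.11), while Syn1 and Syn2, which are abundant at mature synapses, differed by 0.78 and 0.42.

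Transmitter systems were represented by several receptor families. Of 13 receptors and channels 9 were at least 2-fold higher, 6 of them at least 4-fold. At the olfactory floor 7 of the 13 were 2-fold higher. The nicotinic acetylcholine receptor subunit genes Chrna3 and Chrnb4, which form one receptor of peripheral and brainstem neurons, stood at 7.86 against 12.18 (4.32) and 9.43 against 11.42 (1.99). Chrna3 lay at 7.18 to 7.37 on the later arrays, whereas the subunit gene Chrna4 stood at 8.92 against 11.90 (2.98) and at 10.90 to 12.04 later. The glycine receptor gene Glra1 stood at 7.46 against 11.68 (4.22), and the glutamate receptor genes Gria2 and Grik2 at 6.88 against 10.51 (3.63) and 7.14 against 9.70 (2.56). Among transporters, Slc18a2, which loads monoamines into vesicles, stood at 8.14 against 11.26 (3.12), Slc17a6, which loads glutamate, at 7.62 against 9.89 (2.27), and Slc18a3, which loads acetylcholine, at 8.70 against 10.52 (1.82). Th, Gad2 and Slc6a5, of catecholamine, GABA and glycine neurons, stood at 8.82 against 10.03 (1.21), 7.67 against 9.40 (1.73) and 7.98 against 9.43 (1.45). Serotonin genes Tph2 and Slc6a4 differed by 0.11 and -0.10, and Slc17a7, the glutamate loader of cortical neurons, by -0.14.

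Axon guidance genes were higher on both sides of the contact. Of 10 ligands 6, and of 21 receptors and adhesion molecules 17, were at least 2-fold higher, and 0 were lower. At the olfactory floor the higher ones numbered 6 and 16. The netrin receptor gene Dcc stood at 8.01 against 11.33 (3.32), and its ligand Ntn1 is given above. The repellents Slit1 and Slit2 stood at 8.96 against 11.73 (2.77) and 9.21 against 11.90 (2.68), and their receptor genes Robo1, Robo2 and Robo3 at 9.55 against 12.40 (2.85), 8.39 against 10.80 (2.40) and 7.82 against 9.57 (1.76). L1cam, an adhesion gene of growing axons, stood at 8.64 in EpiSCs, 11.56 in the rosette, 8.41 and 8.44 in OPCs and 8.44 and 8.38 in oligodendrocytes. Cntn2, of commissural and motor axons, stood at 8.71 in EpiSCs, 11.52 in the rosette, 8.36 and 8.59 in OPCs and 8.39 and 8.66 in oligodendrocytes. Both were near the EpiSC level on the later arrays. Chl1, a relative of L1cam, stood at 6.92 against 10.80 (3.88) and stayed at 9.11 to 11.03 later. Epha3, of medial motor axons, stood at 7.42 against 11.19 (3.77), and Ret, a receptor for GDNF, at 8.53 against 11.11 (2.58).

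Factors of neuron subtypes were higher in part. Of 36 factors of spinal and hindbrain neuron types 7 were at least 2-fold higher and 0 lower, against 6.91% of all genes higher. That share takes in many dim genes. Of the 11015 genes whose brighter array lay above the median, 1273 were higher, and 20 of the 36 factors were such genes. Among motor neuron genes 1 of 10 reached 2-fold, Slc18a3 as above, and Mnx1, the somatic motor neuron factor, stood at 7.30 against 7.21 (-0.09), Isl1 at 9.70 against 10.61 (0.91) and Lhx3 at 8.75 against 9.62 (0.86). Tbx20, of branchial and visceral motor neurons of the hindbrain, stood at 7.29 against 10.41 (3.13). The interneuron factors Lhx5 and Lhx1 stood at 7.64 against 9.80 (2.17) and 9.10 against 11.04 (1.95), Gata3, of V2b interneurons, at 7.70 against 8.87 (1.16), and Pou4f1, of dorsal and sensory neurons, at 7.36 against 8.86 (1.50). Gata3 and Pou4f1 were dim, and differed by 0.53 and 0.53 at the olfactory floor, at which 5 of the 36 were 2-fold higher. Evx1, En1, Sim1 and Sox14, which mark other ventral interneuron classes, differed by 0.04, -0.17, -0.03 and -0.28.

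Progenitor genes were higher by smaller steps. Among 28 genes of the neuroepithelium, the 2-fold limit was passed upward by 14 and downward by 0 (median 1.06). Rfx4, a factor of neural tube cilia and patterning, stood at 8.23 against 11.54 (3.31) and at 10.45 to 12.11 later. Dach1 and Pou3f2 stood at 7.92 against 10.58 (2.66) and 9.24 against 11.35 (2.11), Sox21 at 9.65 against 11.11 (1.47), and the RNA-binding gene Msi1 at 10.51 against 12.11 (1.60). Nes and Vim, intermediate filament genes of progenitors, stood at 10.34 against 11.69 (1.35) and 13.61 against 13.95 (0.34), and Prom1, of the apical membrane, at 10.22 against 11.06 (0.83). Nr2e1, a forebrain and eye progenitor factor, stood at 8.29 against 8.65 (0.36).

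Adhesion genes differed in opposite directions by type. Of 26 epithelial junction genes 13 were at least 2-fold lower, 6 of them at least 4-fold, and 0 higher, with a range of -4.15 to -0.16 and a median of -1.04. Cdh1, the epithelial cadherin, stood at 12.18 in EpiSCs and 8.37 in the rosette, a difference of -3.81, and Cdh2, the neural cadherin, at 10.76 in EpiSCs and 12.67 in the rosette, a difference of 1.91. Epcam and the tight junction gene Cldn6 stood at 11.69 against 7.58 (-4.10) and 12.29 against 8.14 (-4.15), and the surface protease St14 and its inhibitor Spint1 at 10.11 against 8.39 (-1.72) and 11.32 against 8.80 (-2.52). Desmosome genes Dsg2, Dsc2 and Dsp stood at 8.65 against 6.94 (-1.71), 8.50 against 7.02 (-1.48) and 9.33 against 8.04 (-1.29), and Jup, shared by desmosomes and adherens junctions, at 10.52 against 10.13 (-0.38). Simple epithelial keratin genes Krt19, Krt8 and Krt18 stood at 10.37 against 8.26 (-2.11), 11.70 against 9.77 (-1.93) and 10.62 against 8.75 (-1.87). Grhl2, a regulator of such genes, stood at 8.78 against 7.63 (-1.15). Dsg2, Dsc2 and Grhl2 were dim, and differed by -0.42, -0.27 and -0.55 at the olfactory floor, at which 10 of the 26 were 2-fold lower.

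Of 18 cadherins and protocadherins 10 were at least 2-fold higher and 1 lower, Cdh3, the placental cadherin, at 9.42 against 7.89 (-1.52). Type II cadherins, which sort neural progenitors and motor pools, were unlike each other: Cdh6 stood at 9.16 against 11.39 (2.23) and Cdh11 at 9.18 against 10.91 (1.74), Cdh8, Cdh12 and Cdh20 differed by 2.17, 1.34 and 1.13, and Cdh10 and Cdh7 by 0.63 and -0.23. Pcdh18 and Pcdh19 stood at 8.99 against 11.17 (2.18) and 7.75 against 9.28 (1.53), and Pcdh8 at 7.94 against 9.75 (1.80). Cdh12, Cdh20 and Pcdh19 were dim in EpiSCs, and Cdh12 and Cdh7 lay under the olfactory receptor level on both arrays. At the olfactory floor Pcdh19, Cdh20 and Cdh12 differed by 0.95, 0.52 and -0.10, and 7 of the 18 were 2-fold higher. In the basement membrane, 7 of 12 genes were at least 2-fold lower. Laminin chain genes Lamb1, Lama5, Lamc1 and Lama4 stood at 10.78 against 8.58 (-2.19), 10.74 against 8.95 (-1.79), 11.35 against 9.75 (-1.59) and 8.50 against 7.46 (-1.04), and the linker Nid2 at 10.82 against 8.51 (-2.31). Lama4 differed by -0.27 at the olfactory floor. Lama1, the laminin alpha chain of the embryonic neural tube membrane, was the 1 that was higher, at 9.08 against 10.96 (1.88). Tnc, a matrix protein of glial progenitors, stood at 9.51 against 7.94 (-1.57), and at 9.76 to 13.22 later. Integrin genes Itgb5 and Itga3 stood at 11.69 against 8.95 (-2.74) and 10.33 against 8.70 (-1.63), while Itgb1, the common beta chain, stood at 11.25 against 11.13 (-0.12). Of 11 collagen genes 0 were 2-fold apart.

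**Figure D4:**
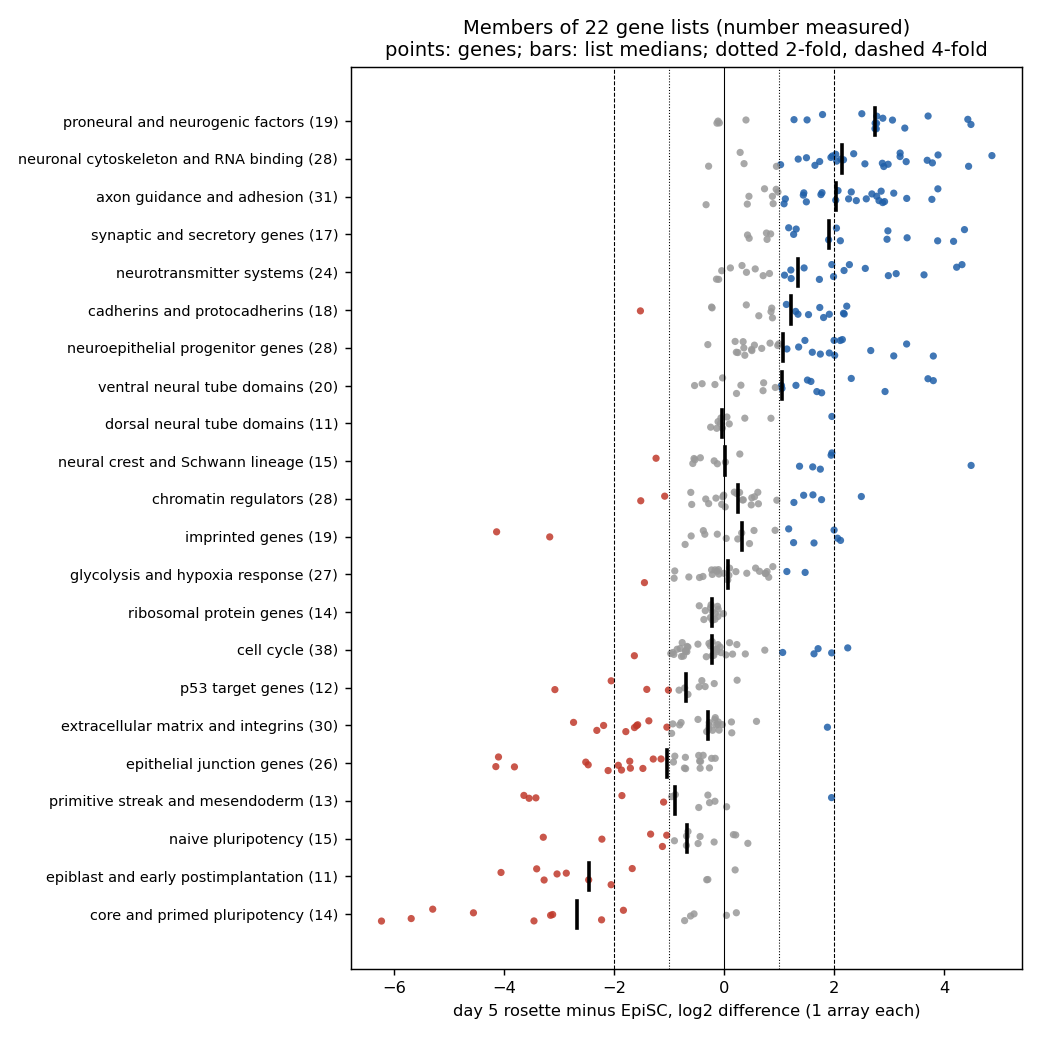
Log2 difference, rosette minus EpiSC (x axis, 1 array each), of every measured member of 22 gene lists (y axis, number measured in brackets), with black bars at list medians and blue and red points at least 2-fold higher and lower. Medians run from -2.67 for pluripotency genes to 2.74 for proneural factors, and the ribosomal protein genes lie together at -0.22.

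DNA methylation enzymes differed within each class. The de novo methyltransferase gene Dnmt3b stood at 11.88 in EpiSCs and 8.85 in the rosette, a difference of -3.04, its cofactor Dnmt3l at 8.94 against 7.14 (-1.80) and Dnmt3a at 11.52 against 10.55 (-0.97), while the maintenance enzyme gene Dnmt1 stood at 11.74 against 11.70 (-0.04). Dnmt3l differed by -0.71 at the olfactory floor. Of the oxidases that remove methylation, Tet1 stood at 12.14 against 11.05 (-1.09), but Tet2 and Tet3 at 9.10 against 10.80 (1.70) and 9.03 against 10.21 (1.17). Of 11 measured germline genes, which promoter methylation keeps silent in somatic cells, 0 were 2-fold apart. Their medians, 6.53 in EpiSCs and 6.46 in the rosette, lay near those of olfactory receptor genes (6.57 and 6.52). Differences among such dim genes could be hidden, and silencing was not tested. In the chromatin remodelling complex BAF, subunits exchange as progenitors become neurons. Of 16 such subunits and linked neuronal histone deacetylases, 4 were at least 2-fold higher and 0 lower. Actl6b, the subunit of postmitotic neurons, stood at 8.42 in EpiSCs, 10.91 in the rosette, 8.39 and 8.50 in OPCs and 8.66 and 8.55 in oligodendrocytes, against Actl6a, its progenitor counterpart, at 13.19 against 13.04 (-0.15). The subunit genes Smarcc2 and Dpf3 stood at 9.79 against 11.56 (1.77) and 8.86 against 10.30 (1.44), and the deacetylase gene Hdac9, which is no BAF subunit, at 8.64 against 10.25 (1.61). The neuronal subunit genes Ss18l1 and Dpf1 differed by 0.96 and 0.62, and Smarcc1 differed by -0.05. In Polycomb complexes Phc1 and Cbx7, high in stem cells, stood at 12.85 against 11.33 (-1.52) and 10.62 against 9.54 (-1.08), and Bmi1, needed for self-renewal of neural stem cells, at 8.79 against 10.06 (1.27). Ezh2, the catalytic subunit, differed by 0.23.

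Lin28a, an RNA-binding protein that blocks let-7 maturation in stem cells, stood at 11.92 in EpiSCs and 9.45 in the rosette, a difference of -2.48, whereas its paralog Lin28b stood at 10.10 in EpiSCs, 10.32 in the rosette, 8.17 and 8.18 in OPCs and 7.96 and 8.04 in oligodendrocytes. Trim71, another let-7 pathway gene, stood at 11.26 against 9.74 (-1.52), and Igf2bp1 and Igf2bp3, fetal RNA-binding proteins, differed by -0.41 and 0.14. Among splicing regulators, the epithelial factor Esrp1 stood at 9.58 against 7.11 (-2.47) and Rbm47 at 8.39 against 7.33 (-1.06) (-0.17 at the olfactory floor), and Celf2, Ptbp2, Rbfox2 and Khdrbs3 at 8.84 against 10.94 (2.10), 12.14 against 13.49 (1.34), 10.57 against 11.75 (1.19) and 10.33 against 11.46 (1.14). Ptbp1, the repressor of neuronal exons, stood at 12.96 against 12.60 (-0.36).

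Of 19 measured imprinted genes, expressed from one parental copy, 2 were at least 4-fold lower and 6 at least 2-fold higher. At the olfactory floor 5 were 2-fold higher. Phlda2, a restrainer of placental growth, stood at 12.20 against 8.07 (-4.14) and Slc38a4, an amino acid transporter gene, at 12.01 against 8.84 (-3.17). Nnat, Ndn and Plagl1, which are abundant in developing brain, stood at 11.43 against 13.54 (2.11), 10.72 against 12.78 (2.06) and 10.11 against 12.10, and the growth inhibitor gene Cdkn1c at 10.07 against 11.70 (1.63). Meg3, Mest and Peg3 differed by 0.25, 0.32 and -0.35.

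Most cell cycle genes were less than 2-fold apart. The 13 S phase genes lay between -1.63 and -0.15 with a median of -0.74, and 1 was at least 2-fold lower: Ccne1, the cyclin of S phase entry, at 12.66 against 11.02 (-1.63). The replication helicase genes Mcm3, Mcm4 and Mcm5 stood at 11.96 against 11.03 (-0.94), 12.11 against 11.26 (-0.86) and 12.73 against 11.97 (-0.76). The 14 genes of G2 and M phase lay between -0.80 and 0.15 with a median of -0.16, and 0 were 2-fold apart. The mitotic kinase genes Bub1, Aurka and Cdk1 differed by -0.80, -0.78 and -0.70, sizes like those of the Mcm genes, and the phases were not tested against each other. Of 11 CDK inhibitor and D cyclin genes 5 were higher. Ccnd2, the D cyclin of neural progenitors, stood at 11.57 against 13.53 (1.95), the inhibitors Cdkn2c and Cdkn1c at 7.23 against 8.94 (1.71) and 10.07 against 11.70 (1.63), and Gadd45g, a growth arrest gene expressed as neurons form, at 8.48 against 10.72 (2.24). Cdkn2c was dim and differed by 0.60 at the olfactory floor. Of 12 p53 targets 4 were at least 2-fold lower and 0 higher. Perp, which is also a desmosome gene, stood at 10.78 against 7.70 (-3.08), Phlda3 at 11.74 against 9.69 (-2.05) and Eda2r at 10.93 against 9.52 (-1.41), while Mdm2 and Ccng1 differed by -0.46 and -0.66.

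Metabolic genes mostly stayed within 2-fold. Of 13 measured glycolysis enzymes and transporters and 11 cholesterol synthesis enzymes, 0 were 2-fold apart. Slc16a1, which carries lactate, stood at 12.46 against 11.23 (-1.22), Slc7a3, a cationic amino acid transporter gene, at 12.81 against 10.76 (-2.06), and Shmt1, the cytoplasmic enzyme of serine and glycine exchange, at 11.23 against 9.57 (-1.66). Of 14 hypoxia response genes 2 were higher, Kdm3a at 10.20 against 11.67 (1.47) and Vegfa at 10.37 against 11.51 (1.14), and 1 was lower, Ndrg1 at 11.17 against 9.72 (-1.45). The 14 measured ribosomal protein genes lay between -0.45 and -0.01 on the deposited scale.

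Among the 25 largest increases and 25 largest decreases, several belong to none of the groups described above. Rgs7, a regulator of G protein signals in neurons, stood at 5.64 in EpiSCs, 9.70 in the rosette, 10.87 and 10.84 in OPCs and 10.52 and 10.59 in oligodendrocytes. Lin7a, a synaptic scaffold gene, and Clvs1 stood at 7.83 against 12.10 (4.28) and 8.01 against 11.82 (3.81), and Edil3, a secreted integrin ligand, at 6.59 against 10.70 (4.10). Itgb8, an integrin of radial glia that activates TGF-beta, stood at 8.26 against 12.15 (3.89), opposite in direction to Itgb5 and Itga3. Among decreases, Trh, the precursor of thyrotropin-releasing hormone, stood at 13.77 in EpiSCs and 7.75 in the rosette, a difference of -6.03 (65.3-fold). Car4, a carbonic anhydrase, stood at 12.66 against 8.80 (-3.85), Trim6 at 11.32 against 7.66 (-3.66) and Slc7a7, an amino acid exchanger, at 12.45 against 8.74 (-3.70).

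**Figure D5:**
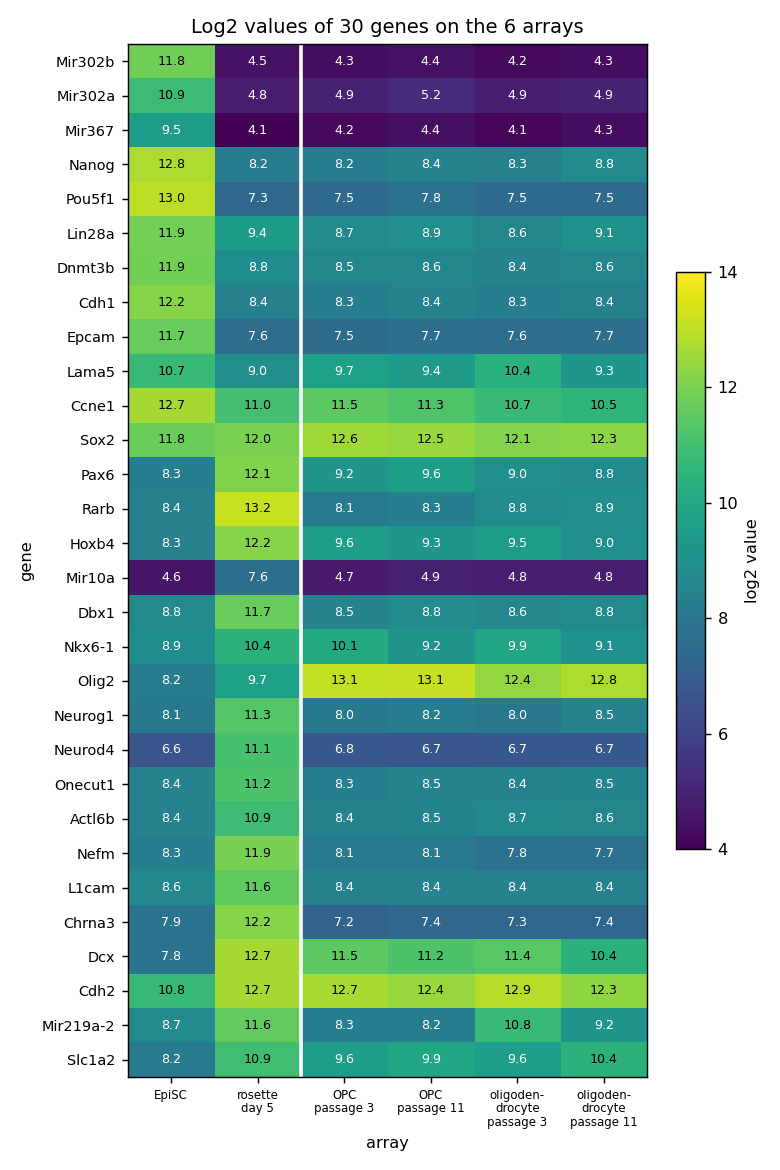
Log2 level of 30 named genes (rows) on each of the 6 arrays (columns), with the value printed in each cell and a white line after the pair compared, to be read along a row because levels of different genes are not comparable. Neurod4, Chrna3 and Actl6b are high on the rosette array alone, at 11.11, 12.18 and 10.91, whereas Dcx and Cdh2 stay high later and Mir302b and Pou5f1 stay low.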

How the data were processed

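RNA of EpiSCs and day 5 rosettes was read on Affymetrix whole-transcript arrays, 1 each, from 150 ng of total RNA per the labels. The authors deposited log2 values. The submitters' processing notes name RMA and Affymetrix Expression Console. RMA corrects background, gives all arrays of a set a common distribution and combines each row's probes, so differences are relative and dim ones are compressed. Its version is not given in the sources used here.

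Of 35556 rows, 21789 carried 1 gene symbol in the platform annotation, 1621 several and 12146 none. By Entrez ID, 21698 were in RefSeq (GRCm38.p6), and 0 symbols changed. The row with the highest mean over the 6 arrays stood for a gene, which left 19938 genes, 999 of them with several rows. Differences were taken in Python with pandas 2.3.3. The code was checked by moving some genes on a copy of the EpiSC array by known sizes. That copy held no added noise, so the check covers the arithmetic only. With no replicates, genes were counted by size, at 2-fold and 4-fold, and lists described by counts and medians. The number of arrays limits the precision. A second row of some genes may read another transcript.

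The comparison, the 49 gene lists (998 entries) and all rules were chosen with earlier results of these data known. The text names the 25 genes with the largest increases and the 25 with the largest decreases, provided that one of the pair's values exceeded the median (9.01) and passing over predicted genes, members of lists with 12 or fewer entries, up to 8 members of longer ones and exceptions to a list's direction, and the cell type markers. Chosen after their values were seen, for their position, their place at the limit or to show the spread within a list, were Actl6a, Atoh1, Catsperz, Cd59a, Cdh10, Cdh12, Cdh20, Cdh7, Cercam, Chchd10, Dsc2, Dsg2, Ebf2, En1, Evx1, Ezh2, Fbxo15, Gm32061, Grhl2, Ina, Jup, Larp7, Magel2, Meg3, Mest, Mkrn3, Nefh, Neurod2, Neurod6, Neurog2, Neurog3, Olig3, Onecut1, Onecut2, Peg3, Pfn2, Rbm47, Ret, Robo2, Robo3, Sall4, Sim1, Smarcc1, Sox14, Syn1, Syn2, Trim28, Uchl1 and Zfp281. Genes without a row were not analysed here. Alternatives were the mean of a gene's rows, a filter on dim genes, centring on the median or on ribosomal protein genes, quantile normalization, a floor at the olfactory receptor level, and rows with several symbols.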

Additional observations from a re-analysis of the deposited data

Results flagged for a closer look

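Rows left out of the gene comparison also differed between the arrays. Of 1621 rows with several gene symbols, 47 passed the 4-fold limit, 40 of them upward in the rosette and 7 downward, with extremes of 4.48 and -4.20. Of 12146 rows with no gene symbol, 222 passed it, 197 upward and 25 downward, with extremes of 4.95 and -6.27, and 130 of them had a brighter array above the median of the genes. These rows were noted because they lie outside the measurement described above, and their genes were not named here.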

How the results depend on the processing

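All 4 counts of genes apart stayed within 1.5 times their value under the 7 alternatives: from 277 to 461 for genes at least 4-fold higher, from 127 to 175 for 4-fold lower, from 1224 to 1858 for 2-fold higher and from 529 to 834 for 2-fold lower. Lists with more members 2-fold higher than lower numbered 28 of 49, and 25 to 29 under the alternatives. Of 680 genes open to naming, the differences of the named genes that passed 2-fold numbered 298, and 279 to 305 under the alternatives. With values raised to the 95th percentile of olfactory receptor genes, 109 of the 680 differences moved by more than 0.26, the SD over genes of the OPC passage pair, and 4 changed sign: Mir10a and Mirlet7c-1 and Hoxc4 to -0.10 each, and Hbb-y to -0.046. In these 4 the floor replaces values on both arrays or nearly so, and what is left is the offset between the arrays' floors. Restricting to genes with a bright array left 48 lists, since Hox groups 10 to 13 had no member left, and 15 list medians moved. No paired analysis was possible because each side has 1 array and the labels give no replicate numbers. Depth does not apply to arrays, and signal over background was not given, so dim genes carry the least certain differences.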

Other observations

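The peptide and secreted factor list held Timp1, an inhibitor of matrix proteases, at 11.45 in EpiSCs, 7.80 in the rosette, 9.71 and 8.24 in OPCs and 9.62 and 8.17 in oligodendrocytes. Other genes low in the rosette were, like it, higher at passage 3 than at passage 11 in some of the later cell types. Ap1s3, a clathrin adaptor subunit gene, stood at 11.80 in EpiSCs, 7.41 in the rosette, 9.77 and 7.54 in OPCs and 9.61 and 8.12 in oligodendrocytes. Prrg4, a membrane protein gene, stood at 11.43 in EpiSCs, 7.38 in the rosette, 9.19 and 7.61 in OPCs and 10.04 and 7.17 in oligodendrocytes, and the small heat shock gene Hspb1 at 12.33 in EpiSCs, 8.41 in the rosette, 9.11 and 8.57 in OPCs and 12.22 and 8.90 in oligodendrocytes. Of 14 fibroblast and stromal genes the contractile gene Tagln stood at 10.65 in EpiSCs, 7.90 in the rosette, 10.89 and 9.29 in OPCs and 13.34 and 9.49 in oligodendrocytes, and the matrix gene Ccn2 at 12.63 in EpiSCs, 10.15 in the rosette, 10.44 and 9.89 in OPCs and 13.05 and 11.07 in oligodendrocytes.

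The largest increase of all genes was passed over by the naming rule because it is a predicted gene, and it is named here after its values were seen. Gm32061 stood at 7.18 in EpiSCs, 12.56 in the rosette, 8.75 and 7.34 in OPCs and 7.86 and 7.44 in oligodendrocytes, 41.8-fold higher in the rosette than in EpiSCs. In RefSeq its span on chromosome 7 overlaps the imprinted genes Ndn, Magel2 and Mkrn3. Ndn differed by 2.06, Mkrn3 by 1.42 and Magel2 by 0.04. Whether the row reads a separate transcript was not tested.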
